A study of Mus musculus with 21 samples.

Results

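Osteopontin, encoded by Spp1, was followed together with the genes of 5 of its receptor chains, Cd44, Itgav, Itgb3, Itgb5 and Itga9, in the cecum of C57BL/6 mice fed broccoli powder. These 6 genes are 6 of the 25361 genes in a table of raw RNA-sequencing counts from 21 libraries. Spp1 was selected on its measured counts, because they were lower with 2.5% broccoli powder than with none, so its values in that contrast are given here as a description and without a test. The receptor genes were taken because their products bind osteopontin, not for their values. All mice were 3 weeks old at the start, received the Total Western Diet, a rodent diet modelled on typical American intake, for 6 weeks, and then spent 3 further weeks on that diet with broccoli powder added. The powder made up 0% of the diet for 6 mice, and 0.5%, 1.0% or 2.5% for 5 mice each. No genotype other than the strain and no agent other than the powder is labelled, and the Western-type diet is common to all 4 groups. The RNA came from cecum tissue with all its cell types, so fewer cells of a type and less RNA per cell cannot be told apart. The labels number the mice but name no cage, and the numbers run largely in blocks by diet, so diet and any shared housing cannot be told apart.

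Osteopontin is a secreted, heavily phosphorylated glycoprotein that acts both as an extracellular matrix component and as a cytokine. Cells bind it through an Arg-Gly-Asp (RGD) motif recognised by integrins, which are paired α and β chains. The partners of αv include β3 and β5, and α9 pairs with β1 to bind a neighbouring site that thrombin cleavage exposes. CD44, better known as the receptor of hyaluronan, also binds osteopontin. In the gut the protein is made by macrophages, T cells and other leukocytes and by epithelial cells, and it is known for roles in leukocyte recruitment and mucosal repair.

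The receptor-binding site is shown first, because 4 of the 5 receptor genes encode chains of integrins that bind at or beside it. The stretch below lies at chr5:104439469-104439513 (GRCm38, plus strand), in exon 6 of 7, and the capitals mark the RGD codons, which are codons 144 to 146 of 294 and the only RGD in the protein. The bases directly after the capitals encode the region that α9β1 is known to bind.
Spp1 coding stretch: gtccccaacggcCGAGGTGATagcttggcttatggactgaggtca

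The 150 bases before a RefSeq start of Spp1 are shown because Spp1 was the member that differed most between diets. They lie at chr5:104434961-104435110 (RefSeq, GRCm38.p6, plus strand). Spp1 had 2 promoter entries, and the bases and matches shown here are those of the entry with the lower coordinate. The first capitals mark a match to the core letters bound by RUNX factors (ACCACA, at positions -128 to -123 from the start) and the second mark TTTAAA (positions -20 to -15), a variant of the TATA box.
Spp1 promoter: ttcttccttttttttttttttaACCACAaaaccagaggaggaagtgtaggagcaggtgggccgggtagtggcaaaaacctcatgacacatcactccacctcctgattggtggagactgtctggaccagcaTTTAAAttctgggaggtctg
Searched on both strands in windows of the same length, ACCACA was held by 8.40% of 32851 mouse promoter entries and TTTAAA by 6.75%. CCAAT was matched once, at position -46 (24.5% of entries), and CANNTG once, at -98 (47.7%). TGANTCA (4.24% of entries) and TATAAA (7.57%) had no match in this window. These are matches of letters and not measured binding sites. A promoter entry was found for 5 of the 6 members, the exception being Itgb3.

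Library totals ranged from 28514263 to 58594569 counts, and mitochondrial transcripts took 22.1% to 31.8% of a library. Markers of large bowel epithelium were present in all 21 libraries, with summed levels between 8861 and 12644 CPM (counts scaled by library total and TMM factor). Transcripts typical of small intestine and of Paneth cells stood apart in 6 libraries, with a mean log2 CPM above 1.5, a limit set after seeing the data. These were 0% replicate 5, 0.5% replicates 1 and 4, 1.0% replicate 1 and 2.5% replicates 1 and 2. The part of such tissue in the results was not tested beyond leaving these libraries out, and values without them are given where they bear on a member. Leukocyte and stromal markers were detected as well, with 12 of 12 macrophage markers above 0.

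Spp1 was a low-level transcript in every diet. Its raw counts were 49, 66, 49, 37, 52 and 29 in the 6 libraries at 0%. They were 26, 15, 54, 39 and 45 at 0.5%, and 59, 56, 51, 45 and 64 at 1.0%. At 2.5% they were 17, 12, 15, 7 and 14. The 5 libraries at 2.5% therefore held 65 counts of Spp1 in all, against 282 in the 6 controls, 179 at 0.5% and 275 at 1.0%. No library at 2.5% reached the lowest control, while 0.5% replicate 2, with 15 counts, lay among the libraries at 2.5%.

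**Figure D1:**
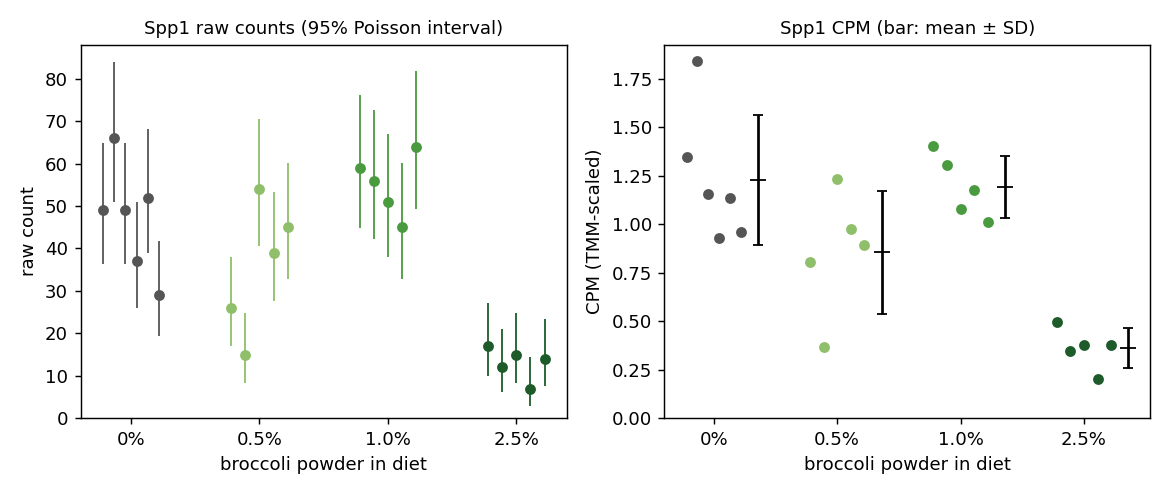
Spp1 in each of the 21 libraries by percent broccoli powder in the diet, as raw counts with exact 95% Poisson intervals (left) and as CPM with the group mean ± SD (right). The 5 libraries at 2.5% hold 7 to 17 counts, and 0.5% replicate 2, with 15, is the only library of another diet in that range.

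On the CPM scale the mean of Spp1 was 1.23 ± 0.337 (SD, n = 6) in controls. It was 0.856 ± 0.316, 1.19 ± 0.159 and 0.362 ± 0.105 with 0.5%, 1.0% and 2.5% powder (n = 5 in each). The controls ran from 0.931 to 1.84 CPM and the 2.5% libraries from 0.204 to 0.498 CPM, so these groups did not overlap. The highest library (0% replicate 2) was 9.03 times the lowest (2.5% replicate 4). The 2.5% level was 0.297 of the control level, a log2 change of -1.75 ± 0.29 (SE, edgeR) that chose the gene and so carries no p here. Among the 15652 genes tested, 104 had non-overlapping groups in this contrast (0.664%), 71 of them higher and 33 lower at 2.5%, and 17 were called at an adjusted p under 0.05 (0.109%). Since the rule used this contrast, nothing is read from Spp1's place among them.

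The observed levels of Spp1 at the lower doses were not in the order of dose. At 0.5% its log2 change from 0% was -0.52 ± 0.27, with 3 of 5 libraries below all controls, and at 1.0% it was -0.04 ± 0.26 with none below. Without 0.5% replicate 2 the 0.5% value was -0.33 ± 0.25. Both values use the control libraries on which Spp1 was picked and are given without a test, as is the slope of -0.65 ± 0.14 in log2 per 1% powder. The contrast of 1.0% with 0.5% compares libraries that the choice did not use, although its error comes from the fit of all 21 libraries. Spp1 was higher at 1.0% there by 0.47 ± 0.28 in log2 (95% interval -0.07 to 1.02), with 2 of 5 libraries above all those at 0.5%, and this did not pass (adjusted p = 0.737, edgeR quasi-likelihood test). A fit of these 10 libraries alone gave 0.47 ± 0.28 (adjusted p = 0.599), and without 0.5% replicate 2 the value was 0.28 ± 0.26. In that contrast 0 of 15652 genes were called (0%), with 1103 at an unadjusted p under 0.05, 2 called by DESeq2 and 0 by limma voom.

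Spp1 was counted from few reads. Its counts had a coefficient of variation of 29.3% among the 2.5% libraries, where counting alone at that mean gives 27.7%, and 13.3% against 13.5% at 1.0%. At 0% and 0.5% the spread was wider than counting alone gives, 27.2% against 14.6% and 43.2% against 16.7%. The difference between 2.5% and 0% was -1.78 ± 0.32 without the 3 libraries richest in small intestine transcripts. It was -1.94 ± 0.40 without the 6, at the limit set after seeing the data. With smooth muscle and macrophage markers as covariates it was -1.86 ± 0.31. Leaving out 2.5% replicate 4, the lowest library, gave -1.61 ± 0.30.

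Spp1 lies on chromosome 5 from 104435118 to 104441050 (GRCm38, plus strand), within a cluster of genes for related acidic phosphoproteins of bone and tooth, the SIBLING family. The predicted gene Gm42793 overlaps its start on the same strand but had 0 counts in all 21 libraries. Mepe, another family member in the cluster, also had 0 counts throughout. Ibsp, bone sialoprotein, had 97 counts over the 6 controls, 68 of them in 0% replicate 5. It had 13 counts at 0.5%, 30 at 1.0% and 4 at 2.5%, too few to enter the test.

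Dmp1, dentin matrix protein 1, was the family member with the higher level, at 1.84 CPM per kb of exon against 0.561 for Spp1 over the 21 libraries. Its counts varied widely within diets. They were 461, 399, 91, 93, 296 and 206 at 0%, 132, 67, 441, 236 and 203 at 0.5%, 326, 95, 157, 108 and 276 at 1.0%, and 73, 61, 171, 142 and 252 at 2.5%. Group means were, from 0% to 2.5%, 6.93 ± 4.36, 5.15 ± 3.14, 4.09 ± 2.19 and 3.84 ± 2.03 CPM, but every group overlapped with the controls and the log2 change at 2.5% was -0.85 ± 0.53 (adjusted p = 0.675). The fifth family gene, Dspp, had 52 counts over all libraries. Of the other neighbours within 250 kb that are in the table, Pkd2, a cation channel of primary cilia, stood at 49.0, 41.9, 46.5 and 46.9 CPM from 0% to 2.5%. The noncoding gene D930016D06Rik stood at 66.0, 71.3, 63.7 and 65.7 CPM. Neither had its lowest mean at 2.5%.

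**Figure D2:**
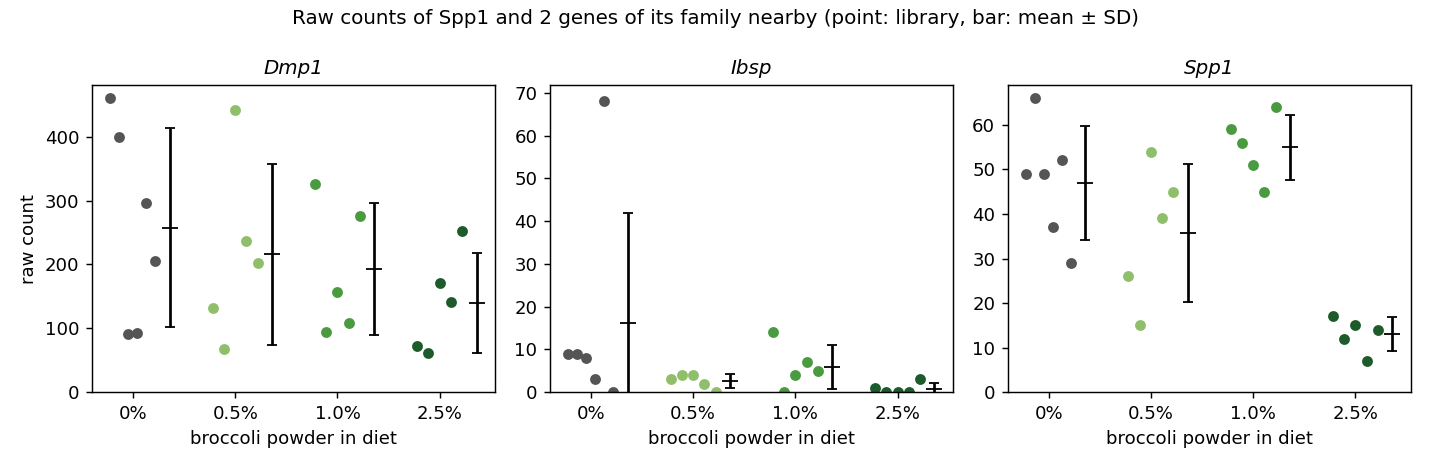
Raw counts of Dmp1, Ibsp and Spp1 in each library by percent broccoli powder in the diet, with the group mean ± SD (the lower bar of Ibsp is drawn from 0). Dmp1 spans 61 to 461 counts with overlapping groups, Ibsp reaches 68 counts in 1 control library, and Spp1 is separated at 2.5% from the controls.

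The 5 receptor genes were all expressed at higher levels than their ligand. Per kb of exon, the median over 21 libraries was 13.9 CPM for Cd44, 12.7 for Itgav, 6.56 for Itgb5, 5.18 for Itga9, 3.91 for Itgb3 and 0.593 for Spp1. Cd44 exceeded Itgav in 14 of 21 libraries, so the order of these neighbours was not the same in every mouse. Each of the other neighbours in this order kept its place in 20 or 21 of 21 libraries. Only 18.3% of the tested genes had a lower level per kb than Spp1, while 83.4% were lower than Cd44 and 81.4% lower than Itgav.

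None of the 5 receptor genes passed in any comparison, at 0 of 5 in each. The share of all tested genes called was 0.00639% (1 gene) for 0.5% against 0%, 0% for 1.0% against 0%, 0.109% for 2.5% against 0%, 0% for 1.0% against 0.5%, 0.147% for the slope and 0.0256% for any difference among the 4 diets. With shares this small, 0 of 5 lies near the background and is no result about the receptor genes. The receptor genes also had no call by DESeq2 or limma voom. At an unadjusted p under 0.05 were Itgav at 2.5%, in the slope and in any difference among diets, where 8.43%, 7.32% and 6.41% of all tested genes were, and Cd44 at 0.5%, where 7.14% were.

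Itgav encodes the αv chain, the common partner of β3 and β5, and lies on chromosome 2 from 83724397 to 83806916 (plus strand). Its level at 0% was 158, 140, 109, 109, 154 and 110 CPM. At 0.5% it was 141, 132, 143, 126 and 150 CPM, and at 1.0% 125, 121, 136, 120 and 83.6 CPM. At 2.5% it was 120, 169, 169, 171 and 187 CPM, so 4 of 5 libraries lay above all controls and replicate 1 among them. The log2 change at 2.5% was 0.33 ± 0.13 (unadjusted p = 0.0154, adjusted p = 0.481, edgeR). The slope was 0.13 ± 0.05 per 1% powder (adjusted p = 0.619), and any difference among diets had an adjusted p of 0.653. Without the 3 libraries richest in small intestine transcripts the 2.5% value was 0.38 ± 0.13 (adjusted p = 0.417). Without the 6, which include 2.5% replicate 1, it was 0.49 ± 0.14 (adjusted p = 0.122), at the limit set after seeing the data. At 1.0% the value was -0.15 ± 0.13 against 0% (adjusted p = 0.999) and -0.24 ± 0.13 against 0.5% (adjusted p = 0.733). Within 1.0%, replicate 5 was the lowest of all 21 libraries, and without it these values were -0.05 ± 0.12 and -0.14 ± 0.12.

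Cd44, the hyaluronan receptor on leukocytes, stroma and crypt epithelium, lies on chromosome 2 from 102811141 to 102901665 (minus strand). Its group means were 88.8 ± 17.3, 106 ± 11.6, 91.5 ± 10.6 and 101 ± 12.02 CPM from 0% to 2.5%. The controls alone ran from 68.4 to 119 CPM, a range that held every library of the 1.0% and 2.5% groups. The log2 change was 0.25 ± 0.11 at 0.5% (unadjusted p = 0.0329, adjusted p = 0.685), 0.04 ± 0.11 at 1.0% (adjusted p = 0.999) and 0.19 ± 0.11 at 2.5% (adjusted p = 0.652). The 2.5% value was 0.29 ± 0.10 without 0% replicate 5, the highest control, and 0.13 ± 0.11 without 0% replicate 6, the lowest.

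Itgb3 and Itgb5 encode 2 of the β chains that pair with αv. Itgb3, known from platelets, osteoclasts and endothelium, lies on chromosome 11 from 104608000 to 104670476 (plus strand). Its group means were 24.5 ± 3.69, 21.5 ± 3.98, 24.3 ± 4.19 and 23.6 ± 2.89 CPM. Its log2 change at 2.5% was -0.05 ± 0.13 (95% interval -0.31 to 0.20, adjusted p = 0.929), and at 0.5% it was -0.19 ± 0.13 (adjusted p = 0.752). Without 0.5% replicate 3, which held 14.9 CPM against 21.6 to 25.6 in the others, the 0.5% value was -0.08 ± 0.12. Itgb5, widely expressed in epithelium and stroma, lies on chromosome 16 from 33829665 to 33949338 (plus strand), with means of 24.9 ± 4.97, 24.2 ± 2.67, 25.4 ± 3.30 and 21.6 ± 1.98 CPM. At 2.5% the log2 change of Itgb5 was -0.20 ± 0.11 (95% interval -0.42 to 0.02, adjusted p = 0.632), with 2 of 5 libraries below all controls. Without 0% replicate 6, which held 34.4 CPM against 20.7 to 25.9 in the other controls, it was -0.09 ± 0.09. The 2 β chain genes overlapped between diets in every comparison with 0%. At 2.5% only 0.664% of all tested genes did not overlap with the controls, and this share was not taken at the lower doses. The overlap is therefore no result about these genes.

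Itga9 encodes the α9 chain and lies on chromosome 9 from 118606690 to 118901003 (plus strand). Its means were 40.7 ± 4.14, 39.9 ± 4.34, 37.7 ± 4.23 and 39.6 ± 8.62 CPM. At 2.5% the libraries ran from 30.3 to 53.5 CPM, which are the lowest and the highest of all 21, and the log2 change was -0.04 ± 0.11 (95% interval -0.26 to 0.18, adjusted p = 0.939). Itgb1, its β1 partner, was the highest of the other integrin genes at 297 CPM over all libraries and had a log2 change of -0.06 ± 0.08 at 2.5% (adjusted p = 0.855).

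**Figure D3:**
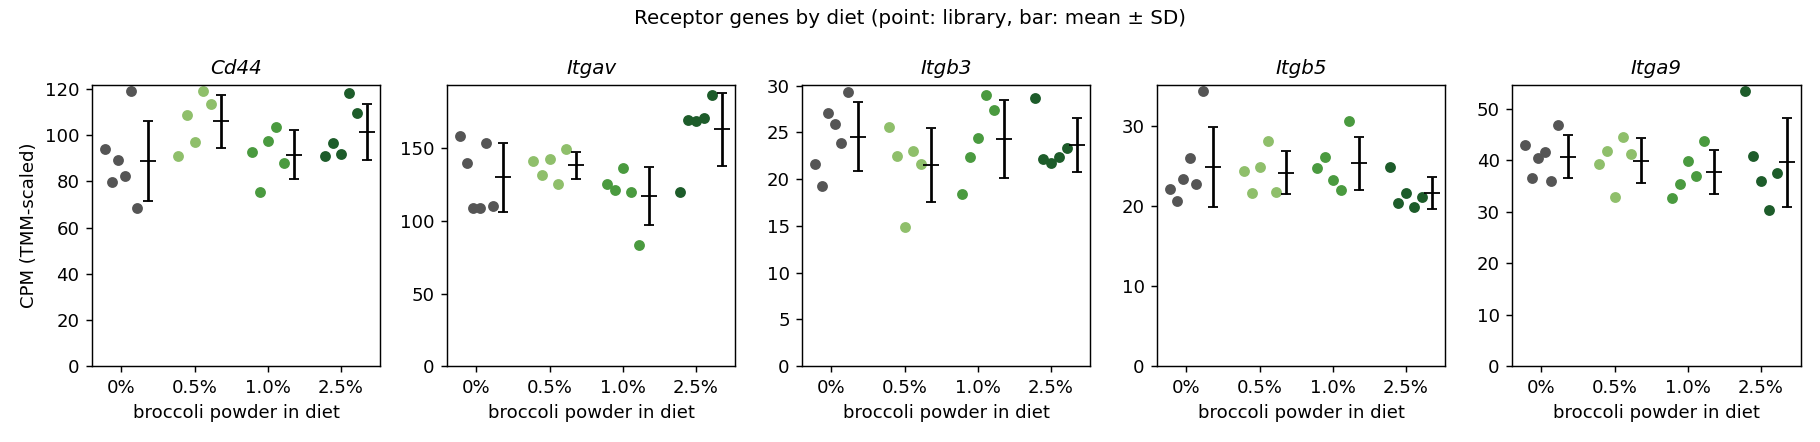
CPM of the 5 receptor genes in each library by percent broccoli powder in the diet, with the group mean ± SD and each axis starting at 0. All groups overlap with the controls (at 2.5% only 0.664% of all tested genes did not), and for Itgav 4 of 5 libraries at 2.5% lie above every control.

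**Figure D4:**
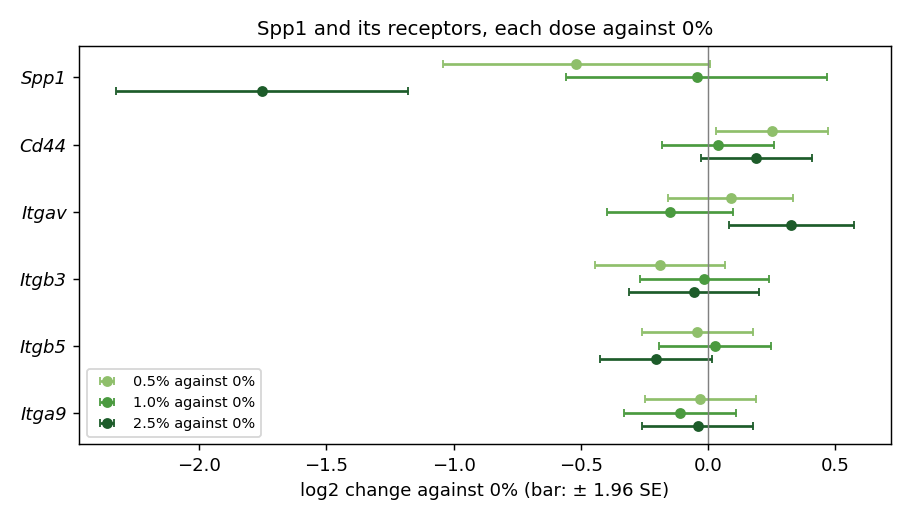
Log2 change of Spp1 and each receptor gene from 0% at the 3 doses (points), with 95% intervals from the standard error. The receptor values lie between -0.20 and 0.33, and Spp1 at 2.5%, the value that chose it, is at -1.75.

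The ratio of chains was also taken per library, per kb of exon. Itgav over Itgb5 was 1.80 ± 0.544 at 0%, 1.92 ± 0.290 at 0.5%, 1.57 ± 0.400 at 1.0% and 2.54 ± 0.542 at 2.5%. The 2.5% libraries ran from 1.59 to 2.92 and the controls from 1.06 to 2.36, so they overlapped. Itgav over Itgb3 was 3.02 ± 0.924 at 0% and 3.87 ± 0.885 at 2.5%, also overlapping. Cd44 over Spp1 was 18.4 ± 5.01 at 0% and 76.4 ± 37.5 at 2.5%, which follows from the Spp1 values that chose the gene.

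Across the 21 libraries, Itgav and Itgb5 were inversely related. Pearson's r of log2 CPM was -0.75 (permutation test, adjusted p = 0.00370 over 57 relations) and Spearman's rho was -0.75 (adjusted p = 0.0131). Without the 2 libraries farthest from the median of Itgb5, r was -0.67, and with values centred on each diet's mean it was -0.69 (permutation test, adjusted p = 0.0182). For the mitochondrial share of a library r was 0.35 with Itgav and -0.40 with Itgb5, and for the difference between long and short genes 0.34 and -0.44, so the signs were opposite for these genes. The part of RNA quality in their relation was not tested. The relation was present within diets, and r was -0.74 without the 6 libraries rich in small intestine transcripts. Of the other 9 pairs of receptor genes none passed over all libraries, but Itgb3 with Itga9 (r = 0.61, rho = 0.51, permutation test, adjusted p = 0.0547) passed within diets (r = 0.67, permutation test, adjusted p = 0.0182).

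Itga9 and Itgb3 varied with the level of smooth muscle markers, a list of 8 genes such as Acta2, Myh11 and Des. For Itga9, r was 0.82 (permutation test, adjusted p = 0.00057) and rho 0.71 (adjusted p = 0.0134), with r = 0.74 without the 2 farthest libraries and r = 0.83 within diets. For Itgb3, r was 0.63 (permutation test, adjusted p = 0.0445), rho 0.61 (adjusted p = 0.0724), and r was 0.64 without the 2 farthest libraries and 0.74 within diets. The summed level of the 8 markers ran from 1765 to 3643 CPM at 0% and from 1424 to 3545 CPM at 2.5%, and all 8 genes were detected. At 2.5% the library with the highest Itga9 (replicate 1) and that with the lowest (replicate 4) were also the highest and lowest of that group in this list. The receptor genes' relations with smooth muscle and epithelial markers and the pairs of receptor genes were added to the family after values had been seen, as were 12 relations with signs of RNA quality, none of which passed. Cd44, Itgav and Itgb5 had no relation with the list that passed (r = -0.29, -0.40 and 0.42).

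**Figure D5:**
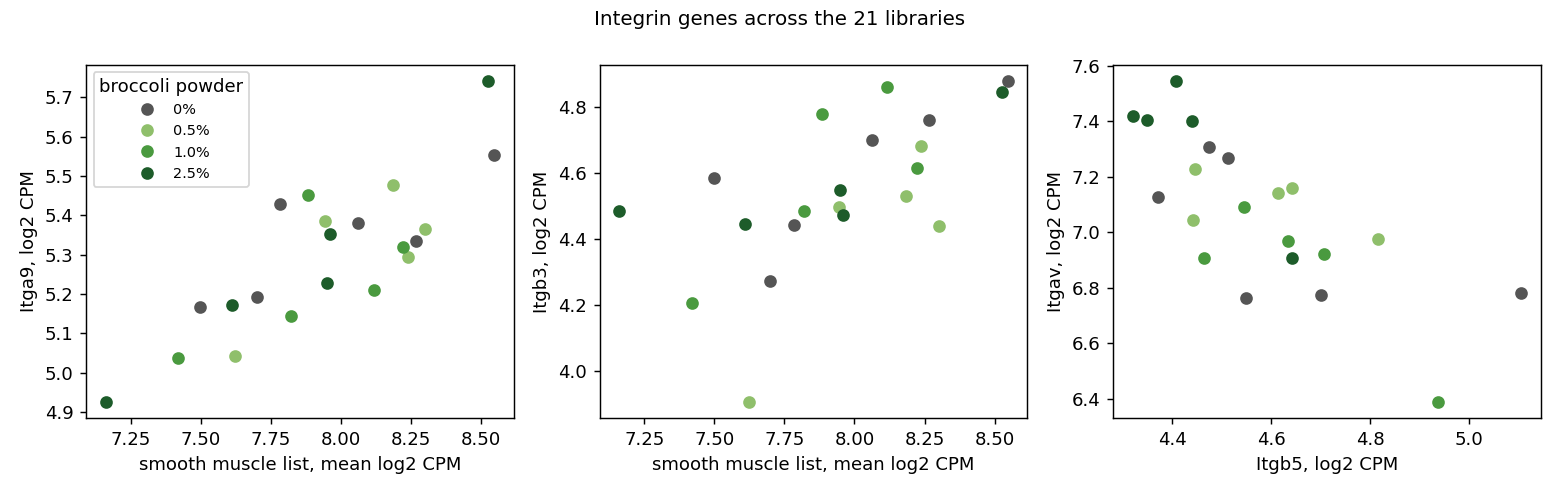
Log2 CPM of Itga9 and Itgb3 against the mean log2 CPM of 8 smooth muscle markers, and of Itgav against Itgb5, 1 point per library coloured by diet. Itga9 (r = 0.82) and Itgb3 (r = 0.63) are higher in libraries with more smooth muscle transcripts, and Itgav is lower where Itgb5 is higher (r = -0.75).

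Spp1 was set beside 20 lists of cell type and tissue markers, and these values are a description where they include the fall that chose it. The largest r was 0.54 with blood transcripts (rho = 0.56), followed by 0.51 with mast cell genes (rho = 0.44). This order depended on the prior count, since at 0.5 in place of 2 r was 0.44 with blood and 0.54 with mast cell genes. Within diets, at the prior count of 2, r was 0.40 with blood and -0.06 with mast cell genes. With macrophage genes r was -0.04, with lipid-associated macrophage genes 0.26 and with small intestine markers 0.12. With values centred on each diet's mean, none of the 25 relations of Spp1 with a list or a receptor gene passed (lowest adjusted p = 0.426, permutation test).

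The summed level of 6 blood genes was 6.54 to 8.24 CPM at 0% and 3.996 to 6.06 CPM at 2.5%, with Alas2 at 0 in all libraries, and 3 of 5 libraries at 2.5% had a mean log2 level below all controls. The mean of 7 mast cell genes was below all controls in 4 of 5 libraries at 2.5%, with a summed level of 38.4 to 60.9 CPM at 0% and 37.9 to 49.0 CPM at 2.5%. The 12 macrophage genes summed to 120 to 182 CPM at 0% and 129 to 138 CPM at 2.5%. In their mean, 0 of 5 libraries at 2.5% lay below all controls. Higher at 2.5% were 1 of 12 macrophage genes, 1 of 5 tested blood genes and 0 of 4 tested mast cell genes, against 46.9% of all genes tested. Their median log2 changes were -0.15, -0.65 and -0.58. None of these genes was called at 2.5%, where 0.109% of all tested genes were, so the calls do not set these lists apart. The immediate early response list of 12 genes was above all controls in 3 of 5 libraries at 2.5% and below all in 1, with a summed level of 2049 to 2338 CPM at 0% and 1899 to 3874 CPM at 2.5%. In each of the other 17 lists at most 2 libraries at 2.5% lay below, or above, all controls. The part of blood, mast cells, macrophages or the immediate early response in the Spp1 values was not tested.

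The genes whose levels were most like Spp1 over the 21 libraries, among 13166 compared, were the β-globin gene Hbb-bs (r = 0.78, rho = 0.76), the organic cation transporter Slc22a3 (r = 0.73, rho = 0.73) and Podnl1 (r = 0.72, rho = 0.72). Next were Rgs11 (r = 0.70), Sccpdh (r = 0.69) and Smu1 (r = 0.68). These likenesses include the low values at 2.5%, and within diets r was 0.43 for Hbb-bs, 0.67 for Slc22a3, 0.39 for Podnl1, 0.38 for Rgs11, 0.13 for Sccpdh and 0.28 for Smu1. Hbb-bs went from 3.26 ± 0.628 CPM at 0% to 1.92 ± 0.273 CPM at 2.5%, and Slc22a3 from 12.5 ± 2.26 to 9.75 ± 1.61 CPM. The most unlike were Zfp143 (r = -0.75), the sialyltransferase St3gal1 (r = -0.74) and the chemokine Cxcl16 (r = -0.73, but rho = -0.40).

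For the receptor genes the closest patterns had r between 0.75 and 0.88, and between 0.74 and 0.88 within diets. Itgav was most like Actr2, a subunit of the actin-nucleating Arp2/3 complex (r = 0.88, within diets 0.88), followed by Zfp654 and Ints6 (both r = 0.87). Itgb5 was most like Atp6v0e2, a subunit of the vacuolar proton pump (r = 0.88), Iah1 (r = 0.83) and Dctn2 (r = 0.82). Itgb3 was most like the calponin gene Cnn2 (r = 0.87), Dtx1 (r = 0.84) and Rcan3 (r = 0.80). Itga9 was most like Wscd2 (r = 0.88), the smooth muscle RNA-binding protein gene Rbpms2 (r = 0.87) and Fam129a (r = 0.85). Cd44 was most like Slco6d1 (r = 0.80), Ptpro (r = 0.79) and Ep300 (r = 0.75).

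The remaining genes of the osteopontin pathway showed no call at any dose. Of all tested genes 0.00639% were called at 0.5%, 0% at 1.0% and 0.109% at 2.5%. The lack of calls thus lies near the background and is no result about these genes. Of the other integrin subunits 21 of 22 were tested. At 2.5% 7 of these were higher and the median log2 change was -0.11, against 46.9% higher and -0.01 over all genes tested. The counts of higher genes in the lists below stand against that same share. Itga6 (227 CPM over all libraries) and Itga3 (128 CPM), epithelial laminin receptors, had log2 changes of 0.07 ± 0.11 and -0.15 ± 0.10. The lowest p in that list was for Itgax, the CD11c chain of myeloid cells, at -0.51 ± 0.22 (adjusted p = 0.532), then Itgae, the CD103 chain of intraepithelial lymphocytes, at -0.22 ± 0.11 (adjusted p = 0.608). Of 16 other ligands of these receptors, 4 were higher, with a median of -0.11. The matrix proteins Postn, Fn1 and Tnc had values of -0.08 ± 0.16, -0.19 ± 0.19 and -0.21 ± 0.13. Emilin1, an elastic fibre protein that binds α9β1, stood at -0.28 ± 0.12 (adjusted p = 0.507) and Mfge8, an RGD protein that binds αv integrins, at -0.25 ± 0.12 (adjusted p = 0.551).

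Of 14 genes of the hyaluronan system, 8 were higher at 2.5%, with a median of 0.05. Ugdh, which makes the UDP-glucuronate used for hyaluronan, was at 0.18 ± 0.10, the hyaluronidase Hyal2 at -0.05 ± 0.12 and the lymphatic receptor Lyve1 at 0.10 ± 0.15. Cemip, a hyaluronan-degrading protein, was at -0.86 ± 0.36 (adjusted p = 0.521) and the hyaluronidase Hyal1 at 0.52 ± 0.23 (adjusted p = 0.533).

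Of 13 genes for enzymes that act on osteopontin or are otherwise linked to it, 9 were tested and 3 were higher, with a median of -0.13. Those not tested included F2, the thrombin gene, with 28 counts over all libraries, Plg with 12, Mmp3 with 151 and Mmp7 with 195. The phosphatase Acp5 was at -0.13 ± 0.09, the gelatinase Mmp2 at 0.10 ± 0.12 and the pyrophosphatase Enpp1 at -0.01 ± 0.11. Tgm2, the transglutaminase that cross-links osteopontin, was the lowest p in the list, from 2.81 ± 0.506 CPM at 0% to 1.92 ± 0.371 CPM at 2.5%, a log2 change of -0.55 ± 0.19 (adjusted p = 0.388).

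Of 16 adaptors and signalling genes of integrins and CD44, 4 were higher, with a median of -0.12. Ezr, the cytoskeletal linker of CD44, stood at 453 ± 53.6 CPM at 0% and 578 ± 66.2 CPM at 2.5%, a log2 change of 0.35 ± 0.11 (adjusted p = 0.327). In 30 of 31 alternatives it did not pass (0.30 to 0.40, adjusted p 0.173 to 0.685), among them the one without the 3 libraries richest in small intestine transcripts (adjusted p = 0.363). It passed only without the 6, at the limit set after seeing the data (0.45 ± 0.10, adjusted p = 0.0463). The kinase Src was at 0.02 ± 0.08, merlin (Nf2) at 0.10 ± 0.07 and the leukocyte kindlin Fermt3 at -0.25 ± 0.10 (adjusted p = 0.507). Of 7 transcription factors known to act on Spp1, 3 were higher, with a median of -0.05. The vitamin D receptor Vdr was at 0.16 ± 0.10 (adjusted p = 0.655), Hif1a at 0.13 ± 0.25 (adjusted p = 0.908), Ets1 at -0.12 ± 0.11 (adjusted p = 0.780) and Runx2, the osteoblast RUNX factor, at 0.04 ± 0.15 (adjusted p = 0.951).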

How the data were processed

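Messenger RNA of mouse cecum was sequenced in 21 libraries from strand-marking kits, per the labels' protocols. The authors deposited raw counts per gene, all whole numbers, with genome build mm10 per the submitters' processing notes. For the aligner, counter, annotation and strand setting the entry is: not given in the sources used here. Reads shared with overlapping genes (for Cd44, Itgav and Itga9 on the other strand) cannot be told apart. All columns matched a sample by name (0 unmatched). Names and positions came from GENCODE M21 (GRCm38), which held 25268 of 25361 identifiers, and 5881 genes had no count. Groups came from the labelled diet. Replicate numbers follow accession order and pair nothing, and libraries were taken as separate mice, so p-values measure the spread between them.

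The test was that of edgeR 4.0.16 (R 4.3.3, TMM, filterByExpr, robust quasi-likelihood, 1 fit of 21 libraries, 15652 genes), two-sided, with Benjamini-Hochberg adjustment over all genes tested and a threshold of 0.05. Every adjusted p of a gene is from this test unless another is named. CPM values were computed from the deposited counts. Correlations used log2 CPM (prior count 2), 100000 permutations and adjustment over 57 relations, and likeness used genes of at least 1 CPM. The code was tested on simulated data. Alternatives were RLE or library-total scaling, no filter, DESeq2 1.42.0, limma 3.58.1 voom, the compared groups alone, marker covariates, and left-out libraries. Correlations were also taken with a prior count of 0.5.

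The members, lists and tests were chosen with earlier results of these data known. Named were all members, the genes within 250 kb of Spp1, the 3 highest genes per exon length and the 2 lowest p at 2.5% in each pathway list, and the genes most like each member (6 highest and 3 lowest for Spp1, 3 highest for each receptor gene). Predicted and RIKEN genes were passed over for likeness. F2, Plg, Mmp3, Mmp7 and Runx2 were named outside this rule, after their values were seen, as were the cell type lists described with Spp1.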

Additional observations from a re-analysis of the deposited data

Results flagged for a closer look

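In 24 groups of 1 member gene and 1 diet, the library farthest from the others was compared with the range of its group, a check that chance meets in about 1 group in 20. It was met in 2 groups, both by 2.5% replicate 1. Itgav stood at 120 CPM in that library, below the other 4 libraries of the diet, which ran from 169 to 187 CPM. Itgb3 stood at 28.7 CPM there, above the other 4, which ran from 21.7 to 23.4 CPM. The same library was among the 6 rich in small intestine transcripts and had the highest smooth muscle marker level of its diet, and the part of either in these values was not tested.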

How the results depend on the processing

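Spp1 kept its direction at 2.5% in all 31 alternatives (log2 change -1.94 to -1.61) and at 0.5% (-0.69 to -0.33), and its slope lay between -0.68 and -0.57. The fall at 2.5% chose the gene, so its kept direction there in refits of the same counts is a description and no support. The values at 0.5% and the slope use the same control libraries and are a description too. At 1.0% against 0% Spp1 lay between -0.20 and 0.11, and at 1.0% against 0.5% between 0.28 and 0.65 (adjusted p 0.338 to 0.935). The 0 of 5 receptor genes called held in all 184 alternative counts. Of 770 alternative log2 values of single receptor genes, 41 changed sign, all of reported values between -0.08 and 0.07.

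At 1.0% against 0%, Itgb3 was at 0.0120 with library totals as the scaling, 0.0647 without the 3 libraries and 0.0646 without the 6 libraries rich in small intestine transcripts (the limit for the 6 was chosen after seeing the data), and 0.0161 with marker covariates, and Itgb5 was at -0.0502 without animals numbered above 70. At 2.5% with covariates Itgb3 was at 0.00766 and Itga9 at 0.0131. At 1.0% against 0.5% Itga9 was at 0.0342 with library totals, 0.00888 without the 3 libraries and 0.0141 without the 6. The slope of Itgb3 was 0.00571 with voom and 0.0363 with covariates, and that of Itga9 0.0134 with covariates. The causes were not tested. Leaving out each library in turn gave -0.101 to 0.0728 for Itgb5 and -0.0710 to 0.0311 for Itga9 at 0.5%, and -0.0230 to 0.144 for Cd44, -0.0830 to 0.0720 for Itgb3 and -0.0480 to 0.142 for Itgb5 at 1.0%. It gave -0.132 to 0.00436 for Itgb3 and -0.172 to 0.0419 for Itga9 at 2.5%, -0.00783 to 0.130 for Itgb5 at 1.0% against 0.5%, and slopes of -0.0329 to 0.0200 for Itgb3 and -0.0711 to 0.0163 for Itga9.

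The count of genes called over the whole table at 2.5% was 17 by edgeR, 83 by DESeq2 and 7 by limma voom. Spp1 rests on 7 to 66 counts per library, so changes well under its spread were not detectable at this depth.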
